A study of Mus musculus with 91 samples.

Results

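The liver of mice fed a high-fat diet (HFD) for 6 weeks was compared with the liver of mice fed a normal diet (ND) for the same time. All liver arrays labelled 6 weeks were taken, 3 of HFD mice and 3 of ND mice, which are 6 of the 51 liver arrays and of the 91 arrays of the series. The mice were male C57BL/6J, an inbred strain prone to diet-induced obesity, and were 11 weeks of age. Mice of the other weeks, whose arrays enter later comparisons, were younger or older according to their weeks on the diet. The ND was the AIN-76 semi-purified diet. The HFD was based on the same diet, with lard and added cholesterol and with less sucrose, corn starch and corn oil. It also held slightly more mineral and vitamin mix, so that fat and cholesterol were not the only differences. All mice were fasted before the tissue was taken. RNA was hybridized to Illumina MouseWG-6 v2 BeadChips with 45281 probes, and whether an array held the liver RNA of 1 mouse or of a pool was not given in the sources used here. P-values therefore measure the spread between arrays only.

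The liver takes up dietary fat and cholesterol, packs surplus fatty acids into droplets and exports lipids in lipoproteins and bile. Cells that are rich in sterols switch off the enzymes of cholesterol synthesis, and the nuclear receptor LXR, which senses oxidized sterols, switches on the sterol exporters. Hepatocytes also make the acute-phase proteins of the blood, whereas Kupffer cells, the resident macrophages, and other antigen-presenting cells carry the MHC class II proteins, and interferon-gamma induces guanylate-binding proteins, immunity-related GTPases and the chemokines Cxcl9 and Cxcl10 in many cell types.

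Values are normalized log2 intensities, so that a difference of 1 is a doubling. Each of the 6 arrays had a median of 7.04 over all probes, and 95% of the probes lay below 10.94. The correlation between replicate arrays was 0.993 to 0.996 in the HFD group and 0.996 to 0.997 in the ND group, against 0.988 to 0.990 between an HFD and an ND array. On the third principal component, which held 9.92% of the variance of the 51 arrays, HFD replicate 2 stood apart from the other arrays of 6 weeks. Without it 121 probes were HFD-responsive by the rule stated next, 108 of them among the 125 found with it. The labelled tissue was borne out by the hepatocyte markers, of which transferrin (Trf), the iron carrier of plasma, had 15.92, 15.95 and 15.87 on the HFD arrays and 15.92, 15.92 and 15.95 on the ND arrays. Trf was near the top of the scale, and 2 of the 10 measured markers had a mean over the 51 liver arrays below the array median.

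With limma, 1803 probes were higher (3.98% of 45281) and 1560 lower (3.45%) in the HFD liver at a Benjamini-Hochberg adjusted p under 0.05. Most of these differences were small, and 3238 of the 3363 had an absolute log2 difference of 1 or less. HFD-responsive probes, those with a larger difference, numbered 101 higher (0.223%) and 24 lower (0.0530%). Leaving out HFD replicate 1 or ND replicate 2 lowered the 1560 to 1022 and 1002. The higher HFD-responsive probes belonged to 80 gene symbols and the lower ones to 18. On all 125 the HFD and ND arrays did not overlap, which held for 13.0% (HFD above) and 13.3% (HFD below) of all probes. Among the genes with the largest rises were chemokines, interferon-inducible GTPases, MHC class II genes and serum amyloids, and among those with the largest falls were the steroidogenic enzyme Cyp17a1, glucuronosyltransferases and enzymes of cholesterol synthesis.

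**Figure D1:**
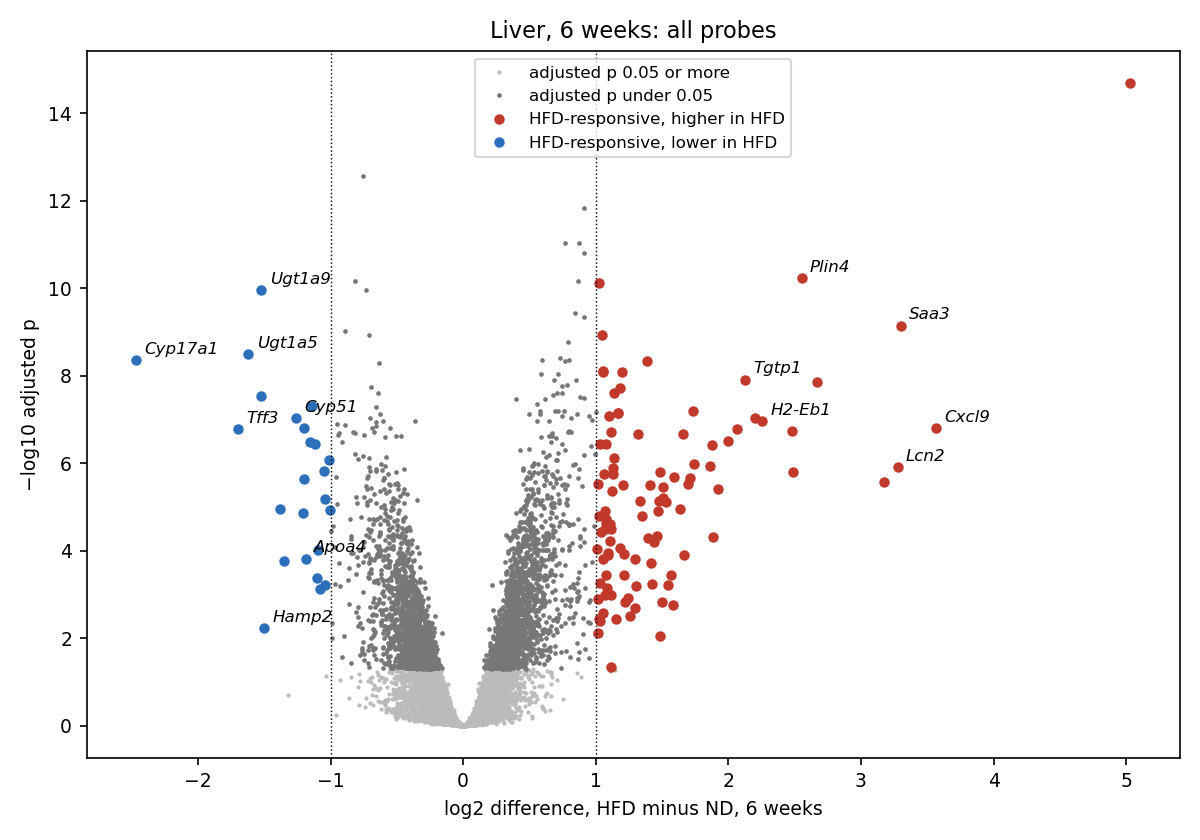
Log2 difference of HFD minus ND at 6 weeks (x axis) against −log10 of the adjusted p (y axis) for each of the 45281 probes, with HFD-responsive probes in red (higher in HFD) and blue (lower in HFD). The 101 red points outnumber the 24 blue points and reach further from 0, with Cxcl9 at 3.56 on one side and Cyp17a1 at -2.46 on the other, and the probe farthest to the right has no gene name.

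Cxcl9, a chemokine that draws CXCR3-bearing lymphocytes, had the largest rise of any named gene. Its values were 12.85, 13.78 and 12.92 on the HFD arrays and 9.62, 9.67 and 9.57 on the ND arrays, a log2 difference of 3.56 ± 0.43 (SE) or 11.8-fold (adjusted p = 1.55e-07). The ND arrays lay within 0.10 of each other, and HFD replicate 2 was well above the other HFD arrays. Gbp2, a guanylate-binding protein of cell-autonomous defence, had 11.25, 12.25 and 11.38 on the HFD arrays, against 9.15, 9.26 and 9.03 on the ND arrays (log2 difference 2.48 ± 0.30, adjusted p = 1.79e-07). Igtp, an immunity-related GTPase, had 12.47, 13.27 and 12.90 on the HFD arrays, against 10.96, 11.05 and 10.98 on the ND arrays (1.88 ± 0.32, adjusted p = 4.9e-05). Tgtp1, another GTPase of that family, had 8.65, 9.50 and 9.44 on the HFD arrays, against 7.12, 6.99 and 7.09 on the ND arrays (2.13 ± 0.23, adjusted p = 1.23e-08). These genes were named from those whose groups do not overlap, so that every HFD array exceeded every ND array by choice. HFD replicate 2 was the highest array in each of them. Without that array the differences were 3.27 for Cxcl9, 2.17 for Gbp2 and 1.69 for Igtp. Other probes of Gbp2 gave log2 differences of 0.47 (adjusted p = 0.00999) and -0.00. Both were dim, with means of 7.02 and 6.82 over the 51 liver arrays, so that its size rests on 1 of 3 probes. The Tgtp1 probe may also bind the near-identical Tgtp2.

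Of 21 measured interferon-inducible genes 10 rose and 1 fell, with a median log2 difference of 0.38, against 5.70% higher, 4.65% lower and a median of -0.0022 over all 19057 genes (1 probe per gene). The same shares are the background of each list count below. The genes that rose were the GTPases and chemokines above, Gbp3 (1.21), Cxcl10 (1.67), Ubd (2.49), a ubiquitin-like protein, and the parts of the immunoproteasome and peptide transporter Psmb8 (0.82), Psmb9 (1.21) and Tap1 (0.83). HFD replicate 2 was the highest array for 9 of these 10 genes, and all 10 also passed with that or any other array of 6 weeks left out. Other members of the list did not rise: Oasl1 fell by 0.47, and Isg15 (-0.43, adjusted p = 0.210), Ifit3 (-0.07, adjusted p = 0.885) and the regulator Irf7 (0.38, adjusted p = 0.060) did not pass. Another probe of Ifit3 was lower in HFD by a log2 difference of -0.65 (adjusted p = 8.19e-06). Outside the list, Usp18, the negative regulator of type I interferon signalling, was lower (-1.20 ± 0.15, adjusted p = 1.55e-07). It had 9.09, 9.66 and 9.47 on the HFD arrays and 10.64, 10.63 and 10.55 on the ND arrays. Its brightest probe gave -0.94 (adjusted p = 2.28e-07). Also outside the list, Gbp2b, another guanylate-binding protein, rose by 1.74 and Serpina3f, a serine protease inhibitor, by 1.70.

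To show the regulatory sequence before genes that rose together, the 150 bases upstream of the RefSeq start are given for Gbp2 (chr3:142620513-142620662, plus strand), Igtp (chr11:58199406-58199555, plus strand) and Tgtp1 (chr11:48992247-48992396, minus strand) in GRCm38.p6, 5′ to 3′. Capitals mark matches, on either strand, to the interferon-stimulated response element (ISRE, searched as GAAA, 2 bases of any kind and GAAA) or the gamma-activated site (GAS, searched as TTCNNNGAA).
Gbp2: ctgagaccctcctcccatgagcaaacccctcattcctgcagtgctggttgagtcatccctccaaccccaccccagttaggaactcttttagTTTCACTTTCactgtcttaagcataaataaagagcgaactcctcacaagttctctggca
Igtp: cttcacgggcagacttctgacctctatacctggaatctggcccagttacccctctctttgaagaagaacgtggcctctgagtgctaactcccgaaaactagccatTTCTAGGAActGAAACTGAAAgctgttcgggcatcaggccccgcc
Tgtp1: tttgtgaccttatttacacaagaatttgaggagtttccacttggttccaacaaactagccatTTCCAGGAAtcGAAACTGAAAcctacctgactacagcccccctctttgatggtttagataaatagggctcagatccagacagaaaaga
In Igtp and Tgtp1 a GAS and an ISRE stood 2 bases apart, at 45 and 34 bases before the start in Igtp and at 88 and 77 in Tgtp1, counted to the first base of each. The ISRE of Gbp2 began 59 bases before the start and lay on the opposite strand. Over windows of 250 bases before to 50 after the start, an ISRE was found in 10 of the 19 interferon-inducible genes with a window (52.6%) and in 3.99% of all 27025 symbols. It was found in 5 of the 11 members that passed and in 5 of the 8 that did not, and a match is a description of the letters only. The GAS was found in 5 of the 19 and in 9.55% of all symbols.

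All 8 measured MHC class II genes rose, with a median log2 difference of 1.59, and 7 of them were HFD-responsive. H2-Ab1, the beta chain of the class II protein I-A, had 12.98, 12.64 and 12.69 on the HFD arrays, against 10.72, 10.92 and 10.90 on the ND arrays (1.92 ± 0.28, 3.79-fold, adjusted p = 3.8e-06). H2-Eb1, the beta chain of I-E, had 11.97, 11.93 and 11.76 on the HFD arrays, against 9.52, 9.77 and 9.59 on the ND arrays (2.26 ± 0.27, adjusted p = 1.07e-07). The nearest HFD and ND arrays were 1.72 apart in H2-Ab1 and 1.99 in H2-Eb1, and HFD replicate 2 was not apart here: replicate 1 was the highest array for 6 of the 8 genes. Cd74, the invariant chain that guides class II proteins to the endosome, had 13.24, 13.09 and 12.98 on the HFD arrays and 10.95, 11.18 and 11.19 on the ND arrays (2.00 ± 0.25). The alpha chain H2-Aa rose by 1.71, the peptide exchange factors H2-DMa, H2-DMb1 and H2-DMb2 by 1.44, 1.48 and 1.35, and Ciita, the master regulator of the class, by 0.83. Another probe of Ciita gave 0.08 and another of H2-DMb2 gave 0.05, neither of which passed. Both were dim, with means of 6.93 and 7.00 over the 51 liver arrays. H2-DMb1 and H2-DMb2 are similar enough for a probe to bind both.

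Before H2-Aa (chr17:34287824-34287973, minus strand), H2-Eb1 (chr17:34305717-34305866, plus strand) and Cxcl9 (chr5:92328080-92328229, minus strand) the capitals mark the Y box of class II promoters (searched as CTGATTGG, both strands) in the same RefSeq sequence of GRCm38.p6. The class II genes are shown because the whole list moved together, and Cxcl9 because it had the largest named rise.
H2-Aa: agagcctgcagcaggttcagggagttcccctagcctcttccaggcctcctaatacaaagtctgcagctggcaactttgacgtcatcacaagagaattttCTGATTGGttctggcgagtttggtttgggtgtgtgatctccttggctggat
H2-Eb1: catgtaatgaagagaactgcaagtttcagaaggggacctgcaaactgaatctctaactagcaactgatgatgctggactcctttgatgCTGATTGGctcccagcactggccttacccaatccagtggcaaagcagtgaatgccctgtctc
Cxcl9: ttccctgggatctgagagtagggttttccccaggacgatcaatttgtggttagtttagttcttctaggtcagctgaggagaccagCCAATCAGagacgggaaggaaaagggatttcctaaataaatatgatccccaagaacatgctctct
The Y box began 51 bases before the start in H2-Aa, 62 in H2-Eb1 and 65 in Cxcl9, where it lay on the opposite strand. It was found in 2 of the 5 MHC class II genes with a window and in 4.70% of all symbols. Neither an ISRE nor a GAS stood in the printed stretch of Cxcl9, and no match says only that these letters are not in this window.

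The MHC class II and interferon lists rose in livers in which macrophage markers were higher as well. Of 15 measured Kupffer cell and macrophage markers 10 rose and none fell (7 to 10 with 1 array left out), with a median log2 difference of 0.65, and their mean on an array was 9.49 to 9.66 in the HFD group and 8.98 to 9.06 in the ND group. Marco, a scavenger receptor, rose by 1.07, Csf1r, the receptor of the macrophage growth factor, by 0.90, Mpeg1, a pore-forming protein, by 0.81, and Timd4, which marks resident Kupffer cells, by 0.51. Clec4f, a lectin of Kupffer cells, had 10.62, 10.25 and 10.45 on the HFD arrays and 10.27, 10.35 and 10.22 on the ND arrays, which overlapped (0.16, adjusted p = 0.460), and Adgre1, which encodes F4/80, did not pass on its brightest probe (0.38, adjusted p = 0.215) but rose by 0.48 on another (adjusted p = 0.0365). Of the remaining blood cell lists, T and NK cell markers (0 of 8 passed, array means 7.18 to 7.40 in HFD and 7.07 to 7.12 in ND) and neutrophil markers (0 of 7 passed, 6.99 to 7.07 in HFD and 6.98 to 7.06 in ND) lay near the array median. B cell markers (0 of 3 passed) had means of 7.15 to 7.23 in HFD and 7.07 to 7.16 in ND. In bulk tissue more cells of a type and more RNA per cell cannot be told apart, and the part of macrophages in these rises was not tested.

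Of 10 genes that mark lipid-associated macrophages 3 rose, namely Lgals3 (1.22), a galectin, Gpnmb (1.11) and the lipase Lpl (1.08). Gpnmb, a glycoprotein of lysosomes, passed narrowly (adjusted p = 0.0458) and lost its call whichever array of 6 weeks was left out, which leaves 2 of 10, and its other probes gave 0.06, 0.11 and -0.13. Trem2, the lipid receptor of these cells, was near the array median with 7.09, 7.26 and 7.10 on the HFD arrays and 6.94, 6.92 and 7.07 on the ND arrays (0.17, adjusted p = 0.550). Apart from Cxcl9 and Cxcl10, which were counted with the interferon-inducible genes, 2 of 15 chemokines and receptors rose, Cxcl1 (1.54), which draws neutrophils, and Cxcl16 (0.66). Without HFD replicate 1 a single member passed. Ccl5 varied most among the HFD arrays, with 9.78, 8.28 and 8.76, against 7.89, 7.76 and 7.83 on the ND arrays (1.10, adjusted p = 0.0549). It was above every ND array on each HFD array but did not pass, and it passed at 1.44 (adjusted p = 0.0185) without HFD replicate 2. Ccl2, the monocyte attractant, had a difference of 0.28 (adjusted p = 0.118) on a probe near the array median, with a mean of 7.03 over the 51 liver arrays.

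**Figure D2:**
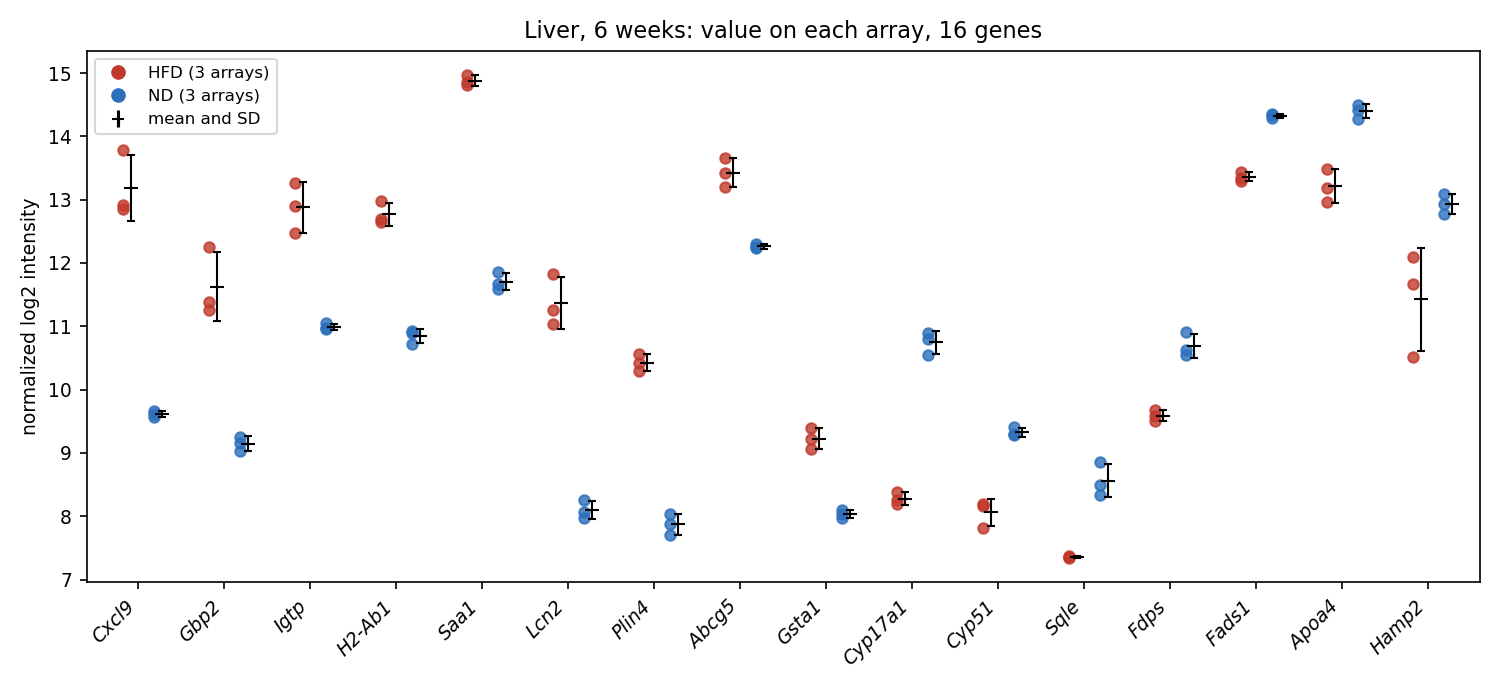
Normalized log2 intensity (y axis) of 16 genes (x axis) on each of the 3 HFD arrays (red) and 3 ND arrays (blue) of 6 weeks, with the mean and SD of each group. The groups do not overlap in any of the 16 genes, which for most of them was a condition of being named. It held for 13.0% (HFD above) and 13.3% (HFD below) of all probes. The HFD arrays are spread most widely in Hamp2, from 10.52 to 12.09.

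Saa3, Lcn2 and Saa1 had the largest rises of the acute-phase list, of which 17 of 24 members did not pass. Saa1, an acute-phase apolipoprotein of high-density lipoprotein, had 14.97, 14.86 and 14.81 on the HFD arrays and 11.67, 11.59 and 11.86 on the ND arrays (3.17 ± 0.44, 9.01-fold, adjusted p = 2.66e-06). Saa3, which macrophages and fat cells also make, had 11.34, 11.13 and 11.39 on the HFD arrays, against 8.10, 7.77 and 8.09 on the ND arrays (3.30 ± 0.31, adjusted p = 7.18e-10). Lcn2, which binds bacterial siderophores, had 11.25, 11.83 and 11.04 on the HFD arrays, against 7.97, 8.26 and 8.07 on the ND arrays (3.28 ± 0.44, adjusted p = 1.24e-06). Between the nearest arrays of the groups lay 2.95 in Saa1, 3.02 in Saa3 and 2.79 in Lcn2. Saa2 (1.50), Saa4 (1.08), Orm2 (1.43), an alpha-1-acid glycoprotein, and the fibrinogen chain Fgg (0.54) rose as well, which made 7 of 24, and none fell. Saa1 and Saa2 are nearly identical, so that their probes may share signal. Haptoglobin (Hp) and hemopexin (Hpx) sat at the top of the scale, 15.63 or more on every array, with differences of 0.01 each, and another probe of Hpx rose by 0.49 (adjusted p = 7.9e-05). Socs3, the feedback inhibitor of the IL-6 signal, did not pass (0.37, adjusted p = 0.630).

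In the complement list 6 of 18 rose and 2 fell, or 1 or 2 fell with an array left out. The C1q chains C1qb and C1qc, made mainly by macrophages, rose by 0.90 and 0.83, and C4a rose by 0.78. C1s1, a protease of the C1 complex made by hepatocytes, fell by 0.68, with 9.80, 9.75 and 9.84 on the HFD arrays, against 10.59, 10.54 and 10.29 on the ND arrays. A further probe of C4a gave -0.06, and C4a and C4b are close copies. Hamp2, a hepcidin paralog, was lower with 12.09, 10.52 and 11.67 on the HFD arrays and 13.09, 12.77 and 12.93 on the ND arrays (-1.50 ± 0.37, adjusted p = 0.00587). This fall rested in part on HFD replicate 2, without which the difference was -1.05 (adjusted p = 0.115).

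Enzymes of cholesterol synthesis were lower in the HFD liver, at 9 of 15 measured genes with none higher, and the median of the list was -0.48. Cyp51, the lanosterol demethylase, had 7.82, 8.20 and 8.17 on the HFD arrays, against 9.41, 9.28 and 9.30 on the ND arrays (-1.26 ± 0.15, adjusted p = 9.44e-08). Sqle, the squalene epoxidase that controls flux late in the pathway, had 7.35, 7.37 and 7.34 on the HFD arrays, against 8.85, 8.50 and 8.34 on the ND arrays (-1.21 ± 0.19, adjusted p = 1.34e-05). Msmo1, a sterol methyl oxidase, had 8.68, 8.69 and 8.65 on the HFD arrays, against 10.03, 9.79 and 9.81 on the ND arrays (-1.20 ± 0.17). The HFD arrays of Sqle and Msmo1 lay within 0.04 of each other. No HFD array reached an ND array in any of the 3 genes, which was a condition of naming them. Fdps, the farnesyl diphosphate synthase, fell by 1.10, and Nsdhl, Tm7sf2, Hsd17b7, Pmvk and Lss fell by 0.79, 0.76, 0.70, 0.48 and 0.37. Ebp (0.06, adjusted p = 0.913) and Idi1 (-0.15, adjusted p = 0.322), both isomerases of the pathway, did not pass. The Idi1 probe was near the array median of 7.04, with a mean of 7.085 over the 51 liver arrays. Other probes of Sqle gave -0.78 and -0.00, another of Fdps gave -0.25, and those of Lss gave 0.04 and 0.06. With 1 array of 6 weeks left out, 8 or 9 of the enzymes still passed. The core of a sterol regulatory element searched as CACCCCAC was found in 0 of the 13 windows of this list and in 3.30% of all symbols, and the Y box letters in 6 of 13.

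Sterol export moved the other way, with 5 of 9 genes of sterol export and LXR targets higher and 1 lower. Abcg5, which with Abcg8 forms the pump that moves cholesterol into bile, had 13.42, 13.66 and 13.20 on the HFD arrays and 12.26, 12.30 and 12.23 on the ND arrays (1.17 ± 0.13, adjusted p = 6.94e-08). Abcg8 had 12.45, 12.88 and 12.30 on the HFD arrays, against 11.45, 11.47 and 11.44 on the ND arrays (1.09 ± 0.20, adjusted p = 0.000124). HFD replicate 2 was the highest array of both partners. Abcg1, an exporter to high-density lipoprotein, rose by 0.42 and Nr1h3, which encodes LXR-alpha, by 0.37, with -0.31 on its other probe (adjusted p = 0.105). Srebf1, the regulator of fatty acid synthesis, rose by 0.99 on its brightest probe and had -0.06 on the other. Pltp, the phospholipid transfer protein, fell by 0.71. Abca1 (0.09, adjusted p = 0.565) did not pass, nor did Cyp7a1 (-0.24, adjusted p = 0.796), the rate-limiting enzyme of bile acid synthesis, whose arrays overlapped. The Abca1 probe had a mean of 6.88 over the 51 liver arrays, below the array median of 7.04, and says little about that gene. Of 18 genes of bile acid synthesis and transport 3 fell, Cyp8b1 (-0.37), Slc10a1 (-0.33) and Nr1h4 (-0.34), but with any 1 array left out at most 1 member of the list passed.

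Genes of fatty acid synthesis and desaturation were lower at 8 of 16 and higher at 2. Fads1, the delta-5 desaturase of long-chain polyunsaturated fatty acids, had 13.30, 13.44 and 13.34 on the HFD arrays, against 14.35, 14.33 and 14.29 on the ND arrays (-0.96 ± 0.13, adjusted p = 2.03e-06). Its partner Fads2 fell by 0.70 and Acss2, which activates acetate, by 0.87, while Scd1, the delta-9 desaturase, rose by 0.41 from a level near the top of the scale and Srebf1 is the other gene that rose. Fasn, the fatty acid synthase, had overlapping arrays (-0.17, adjusted p = 0.411). Its only probe was dim, with a mean of 7.32 over the 51 liver arrays, against an array median of 7.04. Another probe of Fads1 gave -0.10, of Fads2 -0.27 and of Acss2 -0.25, none of which passed. The count of 8 fell to 3 without HFD replicate 1, 4 without HFD replicate 2 or ND replicate 1, and 5 without ND replicate 2 or 3.

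Among 17 genes of lipid droplets and triglyceride storage 4 rose and 1 fell, and the fall did not pass with any array left out. Plin4, a perilipin that coats droplets, had 10.30, 10.56 and 10.42 on the HFD arrays, against 7.70, 7.88 and 8.04 on the ND arrays (2.55 ± 0.22, 5.87-fold, adjusted p = 5.78e-11). Its nearest HFD and ND arrays were 2.26 apart, whereas the other droplet coat Plin2 overlapped (-0.24, adjusted p = 0.342), as did Cidec (-0.16, adjusted p = 0.855). Dgat2, the last enzyme of triglyceride synthesis, rose by 0.52, and without HFD replicate 1 the list had 2 rises. Lpin2, a phosphatidate phosphatase, rose by 0.74 (adjusted p = 0.0473), a call lost in 5 of the 6 sets with an array left out. Lpl, the lipase that releases fatty acids from lipoproteins, had 11.55, 11.70 and 11.33 on the HFD arrays, against 10.40, 10.52 and 10.42 on the ND arrays (1.08 ± 0.14). The fatty acid binding protein Fabp5 went lower by 1.04 on the log2 scale (-1.04 ± 0.15), with 7.20, 7.28 and 7.19 on the HFD arrays and 8.41, 8.12 and 8.28 on the ND arrays, and -0.08 on its other probe. In fatty acid oxidation 4 of 21 genes fell and none rose, but without HFD replicate 1 or 3 a single one passed, and without ND replicate 2 or 3 it was 2. Acadl, the long-chain acyl-CoA dehydrogenase, fell by 0.82 on its brightest probe and had 0.04 and -0.16 on the others, and Fgf21, the fasting hormone of the liver, did not pass (-0.66, adjusted p = 0.207).

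Apolipoproteins were lower at 3 of 13 genes. Apoa4, an apolipoprotein of triglyceride-rich particles, had 12.96, 13.49 and 13.19 on the HFD arrays, against 14.28, 14.42 and 14.50 on the ND arrays (-1.19 ± 0.22, adjusted p = 0.000152), and its brightest probe gave -0.93. Apoa5, which aids lipolysis of such particles, fell by 0.62 and Mttp, which loads lipid onto apolipoprotein B, by 0.54. Apoa1, the main protein of high-density lipoprotein, did not pass (0.02, adjusted p = 0.947). In the glucose and insulin list Gys2, the liver glycogen synthase, fell by 0.86 and 2 of 16 genes rose, or 1 without HFD replicate 2 or any of the ND replicates. Over all genes 5.70% were higher and 4.65% lower. With so few genes passing, the counts of the glucose and insulin list are not read as a result about it. The apolipoprotein count of 3 lower genes was the same with any 1 array left out.

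The largest fall was that of Cyp17a1, the 17-alpha-hydroxylase of steroid synthesis. It had 8.26, 8.19 and 8.39 on the HFD arrays and 10.80, 10.55 and 10.89 on the ND arrays, a log2 difference of -2.46 ± 0.25 (adjusted p = 4.4e-09). The 3 HFD arrays lay within 0.20 of each other, and the highest of them was 2.16 below the lowest ND array. Tff3, a trefoil peptide, had 7.45, 6.96 and 7.38 on the HFD arrays, against 9.14, 8.89 and 8.85 on the ND arrays (-1.70 ± 0.21). Ugt1a5 (-1.62 ± 0.16) and Ugt1a9 (-1.52 ± 0.13), which conjugate glucuronic acid to bilirubin-like and phenolic compounds, fell as well, and since the Ugt1a genes share exons their probes may not be separate measurements. Clec2d, a C-type lectin, had 11.49, 10.86 and 11.12 on the HFD arrays, against 12.51, 12.72 and 12.38 on the ND arrays (-1.38 ± 0.21). Bhmt, which remethylates homocysteine with betaine, fell by 1.14, Dct by 1.35 and Mmd2 by 1.16.

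Other detoxifying enzymes rose. Of 21 genes of cytochrome P450 drug metabolism 7 rose, and Cyp17a1 was the one that fell. Cyp3a11, the main xenobiotic P450 of its family, had 14.10, 14.51 and 13.96 on the HFD arrays, against 13.37, 13.35 and 13.00 on the ND arrays (0.95 ± 0.21, adjusted p = 0.00145). Of 20 glutathione S-transferases and NRF2 targets 8 rose and 1 fell, and 5 rose without ND replicate 2. Gsta1 had 9.39, 9.22 and 9.06 on the HFD arrays, against 8.10, 7.98 and 8.03 on the ND arrays (1.19 ± 0.21), and Gsta2, which is close enough in sequence to share signal, rose by 1.33 (± 0.20). Gstm1 had 14.31, 14.01 and 14.02 on the HFD arrays, against 13.04, 12.98 and 12.90 on the ND arrays (1.14 ± 0.12), and another probe of it gave 0.19. The arrays of the groups did not overlap for any of these 4 genes, against 13.0% of all probes with HFD above. For Gsta1, Gsta2 and Gstm1 this adds nothing, since it held for every HFD-responsive probe.

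In the cell cycle list 6 of 16 genes rose and none fell, among them the replication helicase subunits Mcm5 (0.83) and Mcm2 (0.47) and cyclin D1 (Ccnd1, 0.84), with 4 to 6 when an array was left out. Of 19 genes of extracellular matrix and fibrosis 2 rose, the basement membrane collagen Col4a1 (0.50) and Tgfb1 (0.47). Over all genes 5.70% were higher, so that this count is not read as a result about the list. The fibrillar collagen Col1a1 did not pass (0.19, adjusted p = 0.402), on a dim probe with a mean of 7.20 over the 51 liver arrays. Of 10 stellate cell and fibroblast markers Vim rose by 0.87, with 0.05 on another probe, and of 9 markers of sinusoidal endothelium Dnase1l3 rose by 0.72 and the scavenger receptor Stab2 by 0.44. Of 21 respiratory chain subunits 3 fell, and 1 without HFD replicate 2. The subunit Atp5c1 of the ATP synthase had 12.69, 12.66 and 12.75 on the HFD arrays, against 13.65, 13.58 and 13.53 on the ND arrays (-0.89 ± 0.08). The hepatocyte list had array means of 12.73 to 12.75 on HFD arrays and 12.73 to 12.83 on ND arrays, with 1 of 10 markers passing (0 to 2 with an array left out). In the heat shock list 0 of 9 genes passed, in the lists of male-biased, female-biased, unfolded protein response and circadian genes 1 rose and 1 fell in each, and of 18 genes of the urea cycle and amino acid breakdown 2 rose and 2 fell. Such counts lie near the shares over all genes, 5.70% higher and 4.65% lower, and are not read as results about these lists. With an array left out the urea cycle list had 0 to 1 rises and 0 to 2 falls, and each of the 4 lists before it lost at least 1 of its calls in some of these sets. None of the markers of cholangiocytes, erythroid cells, adipocytes, exocrine pancreas or skeletal muscle passed. Of 7 intestinal markers 1 fell (0 to 2 with an array left out).

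**Figure D3:**
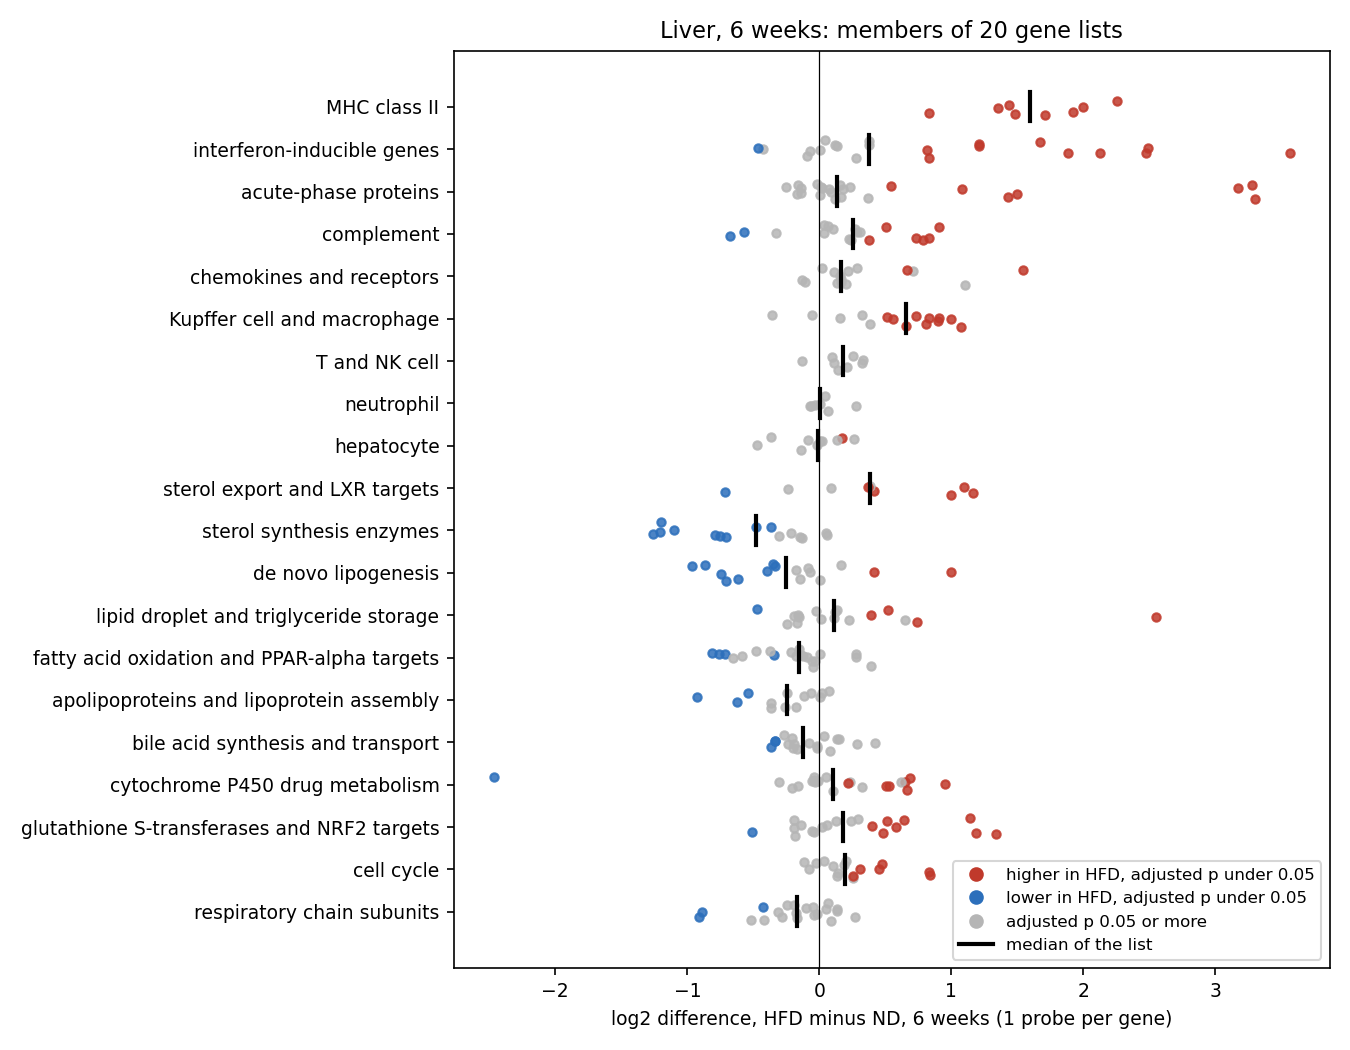
Log2 difference of HFD minus ND at 6 weeks (x axis) for the measured members of 20 gene lists (y axis), 1 probe per gene, coloured by whether the adjusted p was under 0.05, with the list median as a black bar. All 8 MHC class II genes lie to the right of 0 with a median of 1.59, and 9 of 15 sterol synthesis enzymes are significantly to the left with a list median of -0.48.

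The diet effect at 6 weeks was then set beside the effects at the other 7 weeks, which used other arrays. The 125 probes were chosen by their size at 6 weeks, so that a smaller effect elsewhere is partly given by the choice. Of the 101 higher probes, 91 were also higher in week 4 and 92 in week 8 at an adjusted p under 0.05, against 1.56% and 2.19% of all probes. Of the 24 lower probes, 16 were lower in week 4 and 17 in week 8, against 1.08% and 1.42%. In weeks 2, 12, 16, 20 and 24 the higher ones passed in the same direction at 79, 69, 45, 41 and 66 of 101, and the lower ones at 13, 15, 16, 19 and 10 of 24. In all 7 other weeks 28 of the higher and 5 of the lower probes passed, and 4 higher and 1 lower probe passed in none.

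Several leading genes kept a diet effect through the course. The fall of Cyp17a1 was -2.65 in week 2, -2.46 in week 6 and -2.34 in week 24, and passed at each of the 8 weeks. Lcn2, Saa1 and Abcg5 also passed at every week, with Saa1 at 2.79 in week 2, 3.17 in week 6, 3.70 in week 8 and 1.54 in week 24. Cxcl9 was higher by 2.53 in week 2, 3.56 in week 6 and 3.66 in week 8 but did not pass in week 16 (0.87), 20 weeks (1.45) or 24 weeks (1.35). Plin4 was higher by 1.07 in week 2 and 1.37 in week 4, then by 2.55 in week 6 and 2.28 in week 8. Hamp2, in contrast, passed in weeks 6 and 16, with differences of 0.26 in week 2, 0.07 in week 4, -1.50 in week 6, 0.10 in week 8 and -1.29 in week 16.

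**Figure D4:**
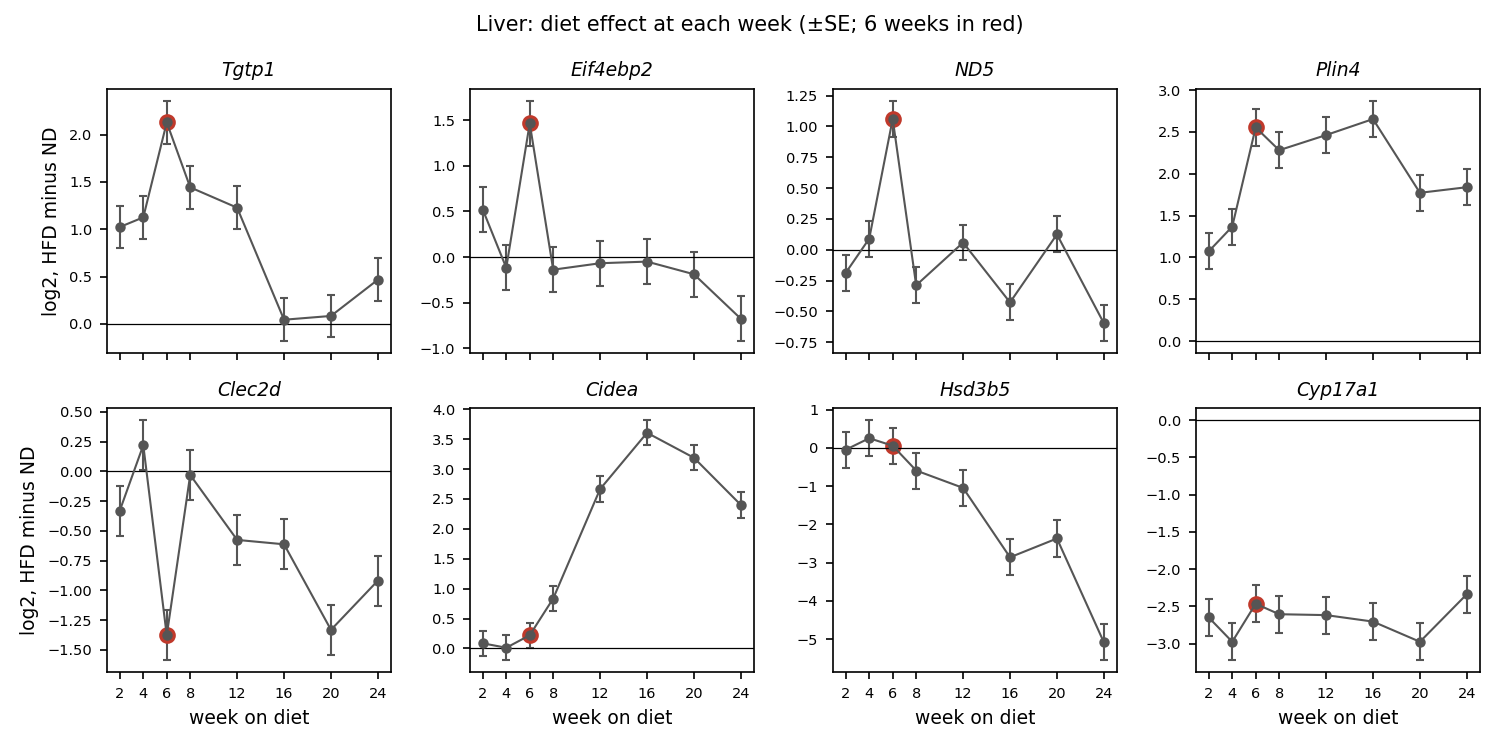
Log2 difference of HFD minus ND with its SE (y axis) at each week on the diet (x axis) for 8 genes, with 6 weeks in red. Tgtp1, Eif4ebp2 and ND5 are highest at 6 weeks, Clec2d is lowest there, Cidea and Hsd3b5 are near 0 at 6 weeks and move later, and Cyp17a1 stays between -2.98 and -2.34.

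The difference between weeks was tested as an interaction. Against 4 weeks, 573 probes had a diet effect that was higher (1.27%) and 214 lower (0.473%) at 6 weeks. Against 8 weeks the counts were 477 (1.05%) and 190 (0.420%), and against the mean of the other 7 weeks 1171 (2.59%) and 870 (1.92%), of which 13 and 2 exceeded a log2 difference of 1. Without ND replicate 2 these counts were 357 and 123, 274 and 104, and 758 and 478. Among the HFD-responsive probes 18 of the higher and 9 of the lower ones differed from that mean, 17 and 8 of them being larger at 6 weeks. Since these probes were chosen by their size at 6 weeks, that direction is partly given by the choice. The counts therefore cannot show a peak at 6 weeks. The effect of 6 weeks combines both diets, and the arrays of 6 weeks differed from the mean of 4 and 8 weeks in the HFD group at 2802 higher and 2917 lower probes (6.19% and 6.44%) and in the ND group at 1482 and 1792 (3.27% and 3.96%). Without HFD replicate 2 the higher count of the HFD group was 1799, without HFD replicate 3 the lower one was 1830, and without ND replicate 2 the ND group had 732 and 916. Arrays of different weeks also differ in mouse age and time of tissue collection, which cannot be told apart from time on the diet. On the first principal component (25% of the variance) the arrays of 6 weeks lay at 17.9 to 21.8 in both diets. Those of 4 weeks lay at 0.8 to 3.3 and those of 8 weeks at 29.2 to 37.6.

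Tgtp1 and Igtp had a larger effect at 6 weeks than the mean of the other weeks, by 1.36 (adjusted p = 0.000266) and 1.19 (adjusted p = 0.0298). This excess did not hold against the neighbouring weeks: Tgtp1 was higher by 1.13 in week 4 and 1.44 in week 8 (adjusted p of the difference = 0.114 and 0.379) and Igtp by 1.40 and 1.58 (0.762 and 0.876). In weeks 16 to 24 the effects of both genes did not pass, at 0.04 to 0.47 for Tgtp1 and -0.21 to 0.25 for Igtp. Without HFD replicate 2 the excess of Igtp was 0.99 (adjusted p = 0.152), and it passed in 1 of the 6 sets with an array left out. The HFD arrays of Tgtp1 were 0.92 above those of 4 and 8 weeks (adjusted p = 0.000891) and its ND arrays 0.07 (adjusted p = 0.893). Eif4ebp2, a repressor of cap-dependent translation, had 11.42, 11.58 and 11.54 on the HFD arrays and 10.02, 10.25 and 9.88 on the ND arrays, a difference of 1.47 at 6 weeks against a mean of -0.10 over the other weeks (adjusted p of the difference = 0.000104). Here the arrays of both diets differed from those of 4 and 8 weeks, by 0.89 in HFD and by -0.71 in ND (adjusted p in ND = 0.0317). ND5, a mitochondrially encoded subunit of respiratory complex I, had 10.59, 10.85 and 10.51 on the HFD arrays and 9.60, 9.53 and 9.64 on the ND arrays, and its shift against 4 and 8 weeks was on the HFD side (1.27, against 0.11 in ND).

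Hsd3b5, a male-specific hydroxysteroid dehydrogenase, and Cidea, a droplet protein of brown fat, had no detectable diet effect at 6 weeks and a large one later. Hsd3b5 had 12.79, 12.91 and 12.76 on the HFD arrays and 12.86, 12.68 and 12.74 on the ND arrays, which overlapped, and its diet effect was -2.86 in week 16 and -5.08 in week 24. Its excess at 6 weeks over the other weeks (1.74, adjusted p = 0.0353) did not pass with any array of 6 weeks left out. Cidea had 7.53, 7.34 and 7.30 on the HFD arrays and 7.09, 7.21 and 7.20 on the ND arrays (0.22, adjusted p = 0.712), and its effect was 0.83 in week 8, 2.66 in week 12 and 3.61 in week 16.

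The other genes named by this test had a lower diet effect at 6 weeks than over the mean of the other weeks. Aass, the first enzyme of lysine breakdown, had 8.54, 8.96 and 8.78 on the HFD arrays and 9.79, 10.09 and 9.53 on the ND arrays (-1.04, against a mean of -0.03 over the other weeks). Its ND arrays were 1.26 above those of 4 and 8 weeks (adjusted p = 6.62e-06) and its HFD arrays 0.38 (adjusted p = 0.178), and its brightest probe had a difference of -0.33 that did not pass. For Rnu6, the U6 small nuclear RNA, and H2ac19, a histone, the shift against 4 and 8 weeks passed on the HFD side (-0.86 and -0.87) and not on the ND side (0.32 and 0.15). Both were lowest on HFD replicate 2, with 10.24 and 11.37, and their difference from the other weeks did not pass without that array (adjusted p = 0.148 and 0.254). Lypla1, a lysophospholipase, was lower by a log2 difference of -0.90 and had -0.05 and 0.02 on its other probes.

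**Figure D5:**
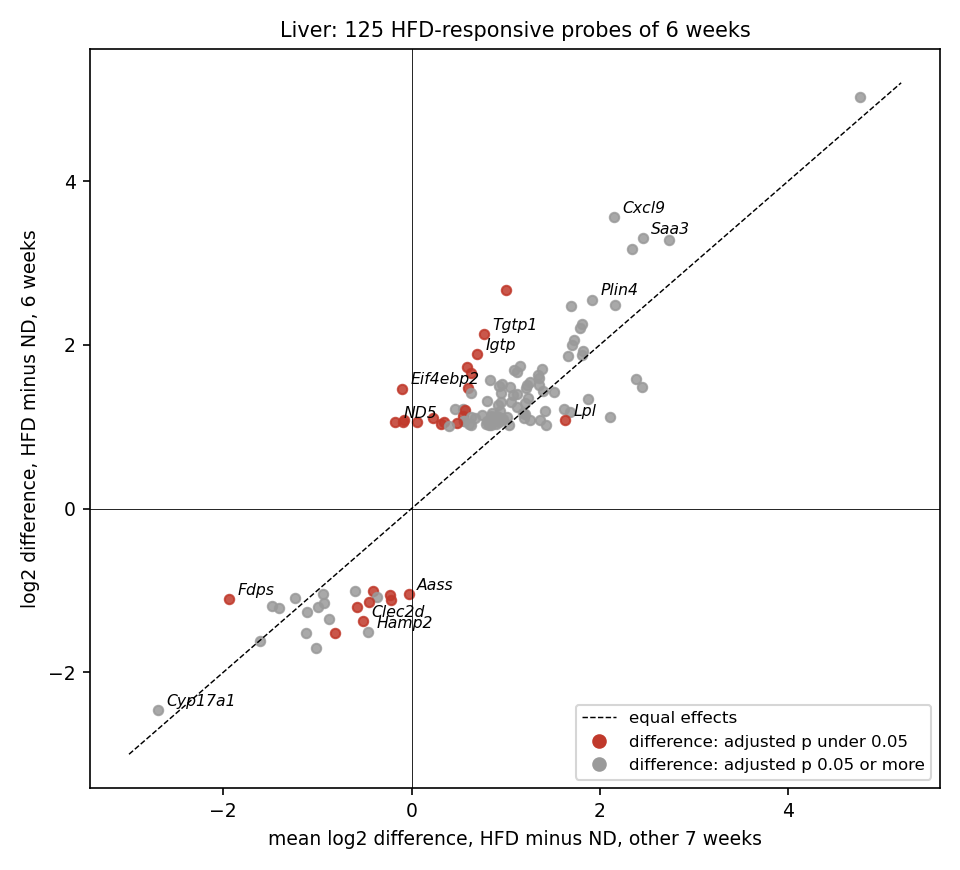
Log2 difference of HFD minus ND at 6 weeks (y axis) against the mean over the other 7 weeks (x axis) for the 125 HFD-responsive probes of 6 weeks, with red points where the difference had an adjusted p under 0.05 and a dashed line of equal effects. Cyp17a1 and Saa3 lie near or moderately off the line, whereas Eif4ebp2, ND5 and Aass have a mean near 0 over the other weeks.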

How the data were processed

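Intensities were read out with BeadStudio by the authors, who deposited them as quantile normalized log2 values, and these were used unchanged. The submitters' processing notes name R 2.4.1. Each array's median and spread was checked, and no detection p-value of the liver arrays was used, so dim probes were kept. In R 4.3.3 with limma 3.58.1, 1 model of 17 group means was fitted over 51 liver arrays, and HFD was compared with ND at 6 weeks with Benjamini-Hochberg adjustment over 45281 probes. An exact permutation test of 3 against 3 arrays cannot give a p under 0.1. In the lists a gene was given its brightest probe, and the largest changes from its brightest HFD-responsive probe and differences from the other weeks from its most different probe, which for Usp18, Apoa4 and Aass is not its brightest. Of the probes 34885 have 1 symbol, 18 several and 10378 none, and the array annotation can be old. The 27 pathway and 13 marker lists hold 547 genes, 499 with a probe, of which 137 passed. Named were the 15 largest rises and falls among HFD-responsive genes without overlap, the 5 genes per direction that differed most from the other weeks, and members of lists. Members and lists were chosen with earlier results of these data known. Promoter letters came from RefSeq (GRCm38.p6). On simulated data 92 of 100 planted differences of 0.5 and 100 of 100 of 1.5 were called. Beside these correct calls stood 18 false ones among 45281 probes. The simulated noise was independent for each probe and array, so that deviations shared by the probes of an array, as in HFD replicate 2, were not part of it. Alternatives were other sets of arrays, centring, renormalization, a dim filter, limma's trend and robust options, the methods' t-test, other probes, a replicate block and leaving out each array.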

Additional observations from a re-analysis of the deposited data

Results flagged for a closer look

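Of 126 genes named in the report and tested, 27 had a diet effect at 6 weeks that differed from the mean of the other 7 weeks at an adjusted p under 0.05 (limma, Benjamini-Hochberg over all probes), 14 above and 13 below that mean. Of these, 10 were named because they differed most in this same test, and of the other 116 genes 17 differed. Over all probes 2.59% lay above and 1.92% below. Many of the 116 were named for a large or passing difference at 6 weeks, which itself enters this test. Their share is therefore raised by the choice and cannot be compared with that of all probes. The test is of the difference itself, and values are the effect at 6 weeks minus that mean on the log2 scale. Where both effects have the same sign, a difference below 0 can be a smaller rise or a larger fall.

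Among immune genes Tgtp1 (1.36), Igtp (1.19) and the peptide transporter Tap1 (0.59) lay above the mean, although each also rose in weeks 4 and 8 and did not differ from these weeks at an adjusted p under 0.05. Complement C4a (0.58) and the fibrinogen chain Fgg (0.63) lay above as well. Usp18 (-0.62), C1s1 (-0.71) and the lectin Clec2d (-0.87) lay below. For C1s1 the ND arrays of 6 weeks were 1.07 above those of 4 and 8 weeks and the HFD arrays 0.60. For Usp18 the ND arrays were 0.82 above (adjusted p = 2.1e-05) and the HFD arrays did not pass (0.21, adjusted p = 0.303).

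Among genes of metabolism Hsd3b5 (1.74), Lpin2 (0.90), Dgat2 (0.48), Nr1h3 (0.30) and Scd1 (0.44) lay above, and Fdps (0.84) fell less at 6 weeks than in that mean. Cidea (-1.61) and Lpl (-0.55) lay below the mean, their effects being larger from week 8 on and not in weeks 2 and 4. Acadl (-0.65), Bhmt (-0.69), Ugt1a9 (-0.71), the ATP synthase subunit Atp5c1 (-0.74), Lypla1 (-0.89) and Aass (-1.01) were lower at 6 weeks. For Bhmt both diets were below their levels of 4 and 8 weeks, by -1.79 in HFD and -1.08 in ND, whereas for Acadl the ND arrays were 0.70 above and the HFD arrays did not pass (0.23). For Ugt1a9 the ND arrays were 0.57 above and the HFD arrays did not pass (0.23).

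Of the remaining genes Eif4ebp2 (1.57), ND5 (1.24) and Nr1d1 (0.85), a repressor of the circadian clock, lay above, and H2ac19 (-0.91) and Rnu6 (-0.92) below. For Nr1d1 the ND arrays were lower than those of 4 and 8 weeks by a log2 difference of -0.63, and the HFD arrays did not pass (0.27). The causes of these differences were not tested.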

How the results depend on the processing

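Counts of HFD-responsive probes (101 higher, 24 lower) were 52 and 9 by the methods' t-test after Benjamini-Hochberg adjustment, 102 and 25 by that test unadjusted, and 1803 and 1560 with no fold threshold. With 1 array of 6 weeks left out they ranged from 94 to 109 and from 23 to 30, and 108 to 122 of the 125 probes were among them. Probes passing without a fold threshold depended more on the setting. The 1560 lower ones were 2370 when the 6 arrays were fitted alone and 2480 without 3 arrays of other weeks that stood apart (chosen after seeing the data), and with an array left out 1297 to 1505 were higher and 1002 to 1369 lower. With limma's trend and robust options the interaction counts fell to 371 and 135 against 4 weeks and 310 and 125 against 8 weeks, and without the 3 arrays the lower count against the other 7 weeks was 1644. Leaving out 1 array gave 354 to 486 and 123 to 176 against 4 weeks, 274 to 406 and 104 to 153 against 8 weeks, 758 to 956 and 478 to 783 against the other 7 weeks, 1799 to 2292 and 1830 to 2157 within HFD, and 732 to 978 and 916 to 1241 within ND. Pathway list members passing were 64 to 72 higher and 30 to 35 lower, and their median of 0.023 was 0.022 to 0.036, or 0.052 with the probe of largest change. The causes were not tested. Other probes reversed the sign of Gbp2 (-0.004), Lypla1 (0.021), Srebf1 (-0.059), Lss (0.039 and 0.061), Acadl (0.037), C4a (-0.057), Gpnmb (-0.135), Nr1h3 (-0.306) and Lpin2 (-0.077). Those of Gbp2, Srebf1, Lss, Acadl, C4a and Gpnmb were dim, with means of 6.66 to 7.16 over the 51 liver arrays, against an array median of 7.04. A value near 0 on such a probe says little about the gene. Those of Lypla1, Nr1h3 and Lpin2 were brighter (8.27, 8.965 and 7.39). The values near 0 on other probes of Sqle, Fabp5 and Vim also came from dim probes (6.76 to 6.85).

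Replicate numbers were shared between diets, but same-numbered arrays deviated together only weakly (r = 0.079, 0.071 and 0.044), so that they were not taken as pairs. With the number as a replicate block in the fit of the 6 arrays alone, the count of lower probes was 2675, against 2370 in that fit without the block, and each array correlated best with its own number. Depth is not defined for arrays, and the signal of dim probes near the array median limits what small differences can show.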

Other observations

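The largest difference of all probes belonged to one without a gene name. Probe ILMN_2835423 had 12.81, 12.62 and 12.59 on the HFD arrays and 7.47, 7.75 and 7.71 on the ND arrays, a log2 difference of 5.03 ± 0.30 (SE) or 32.7-fold (limma, adjusted p = 2.02e-15). A second unnamed probe, ILMN_1250443, had 9.55, 10.51 and 10.45 on the HFD arrays and 7.56, 7.54 and 7.42 on the ND arrays (2.67 ± 0.29, adjusted p = 1.42e-08). The groups were far apart on both, and 10 of the 101 higher and 6 of the 24 lower HFD-responsive probes had no gene name in the annotation used here.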
